A study of Rattus norvegicus with 43 samples.

Results

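Rats that ate a Western-type diet containing high-amylose maize starch (HAMS, 8 rats) were compared with rats that ate the control diet (CON, 5 rats), by gene expression in the wall of the distal colon. The comparison takes 13 of the 43 arrays of the series, 1 array per rat, chosen by the diet label alone (HAM or control). All animals were Sprague Dawley rats of 11 weeks, and 100 ng of total RNA went onto each Affymetrix array. From what is known of the study, the Western-type diets hold more fat and protein than the control diet, whose starch is low-amylose maize starch. HAMS therefore differs from CON in both the background diet and the starch, and these cannot be told apart in HAMS minus CON. The arrays of 7 rats on the Western-type diet with low-amylose starch (LAMS) and of 9 rats with butyrylated high-amylose starch (HAMSB) are set beside it where they help to place a gene. Whole tissue was measured, so fewer cells of a type and less RNA per cell cannot be told apart.

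Amylose-rich starch escapes digestion in the small intestine and is fermented by bacteria in the large bowel to acetate, propionate and butyrate, the last a main fuel of colonocytes. The colon wall that was sampled layers an epithelium of absorptive, mucus-secreting goblet and hormone-secreting cells over connective tissue, vessels, lymphoid follicles, smooth muscle and the nerve plexuses that drive motility. Goblet cells release, beside mucin, small defence proteins such as resistin-like beta and intelectin, which respond to the microbes of the lumen.

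The deposited values are log2 expression levels, and 10828 genes, each represented by 1 probe set, were tested with limma. Differences are HAMS minus CON on the log2 scale ± standard error, group means are ± SD, and adjusted p-values are Benjamini-Hochberg values over all tested genes. Precision is set by the number of rats, and for the median gene the 95% interval of the difference was ± 0.27 wide. The colon markers Car1, Slc26a3, Aqp8, Krt20, Cdx2, Guca2a and Best2 lay above the signal floor of 4.79 in both diets. Of genes listed for other tissues, the floor was passed by 7 of 10 matched for small intestine enterocytes, 5 of 8 for pancreas, 5 of 10 for skeletal muscle and 3 of 7 for male accessory glands. The highest included Slc5a1 (median 8.75 in CON), Spink1 (8.52) and Acta1 (8.26), while Fabp1 (at most 3.64 in any of these arrays) and Svs4 (at most 3.65) lay below the floor. In HAMS minus CON these lists gave 1 rise (pancreas) and 1 fall (accessory glands); the part of such tissue in the results was not tested.

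Before any gene was compared, the arrays themselves differed in 2 respects. The interquartile range over all probe sets, a technical measure of how widely an array's values spread, was 3.38, 3.30, 3.29, 3.27 and 3.25 in the CON arrays and between 2.72 and 3.16 in the HAMS arrays. The means were 3.30 ± 0.0515 (SD, n = 5) and 3.01 ± 0.136 (SD, n = 8), without overlap (difference −0.292, exact permutation test, two-sided, p = 0.00155). The difference was −0.234 among the arrays with low numbers in their file names (2 CON and 3 HAMS, exact permutation p = 0.2, the smallest possible) and −0.323 among those with high numbers (3 CON and 5 HAMS, exact permutation p = 0.0357). The mean level of 15 B cell and germinal centre genes, called the lymphoid level here, was 6.34, 6.55, 6.44, 6.26 and 8.08 in CON. In HAMS it ran from 6.27 over a median of 8.26 to 9.04, so 6 of the 8 HAMS arrays and 1 of the 5 CON arrays stood at 7.72 or above. The array file names add a further split: CON names are written in lower case or start with a number, and all HAMS names start with the diet. Name style therefore separates the 2 diets completely, and only the other diets allow it to be fitted as a block. A narrower spread was not particular to HAMS, as the HAMSB arrays ran from 2.95 to 3.19. Those HAMSB arrays whose names start with a number had 3.12 to 3.19, against 3.25 to 3.29 for such CON arrays. In LAMS the spread was 3.04, 3.21 and 3.12 where names start with the diet and 3.24 to 3.28 where they are in lower case. The part of the spread, the lymphoid level and the name style in the gene results was not tested beyond refitting with each of them in the model. The refits changed many calls among the 82 named genes called in HAMS minus CON. Of these, 15 were still called with the spread as a covariate, 47 with the lymphoid level and 53 with name style as a block. With name style and the lymphoid level together 5 were still called.

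**Figure D1:**
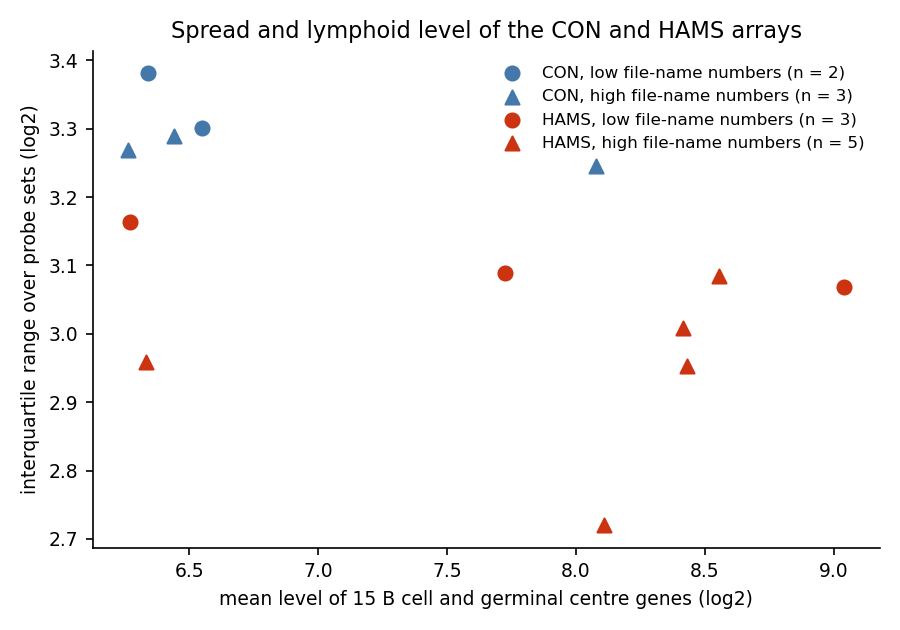
Interquartile range over all probe sets of each array (log2, vertical axis) against the mean level of 15 B cell and germinal centre genes (log2, horizontal axis) for the 5 CON (blue) and 8 HAMS (red) arrays; circles are low and triangles high numbers in the array file names. The CON arrays sit at 3.25 and above and the HAMS arrays at 3.16 and below, while the lymphoid levels of the diets overlap.

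HAMS minus CON passed an adjusted p of 0.05 in 2839 of the 10828 genes (26.2%). Of these, 472 were higher in HAMS (4.36% of the genes tested) and 2367 were lower (21.9%), so 83.4% of the calls were falls. The whole distribution was displaced, with a median difference of −0.14 over all tested genes. With each array centred on its median the calls were 1068 higher and 665 lower, which turns the split, and small differences in either direction depend on that choice. Most differences were small: 41 called genes moved by at least 1 log2 unit, 8 upward and 33 downward. Every HAMS array lay above every CON array in 111 genes (1.03%) and below every CON array in 475 genes (4.39%).

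The direction depended on the level of the gene. In the genes up to the 25th percentile of level the median difference was 0.07, with 357 genes higher and 268 lower. Above the 75th percentile it was −0.22, with 22 genes higher and 776 lower. The genes called higher had a median CON level of 5.29, against 7.77 for those called lower and 7.18 for all tested genes. The level dependence and the narrower spread of the HAMS arrays come from the same values and are not separate observations. Fitting the spread as a covariate left 334 calls (65 higher, 269 lower). The spread did not overlap between CON and HAMS, so this fit may also remove differences of diet.

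**Figure D2:**
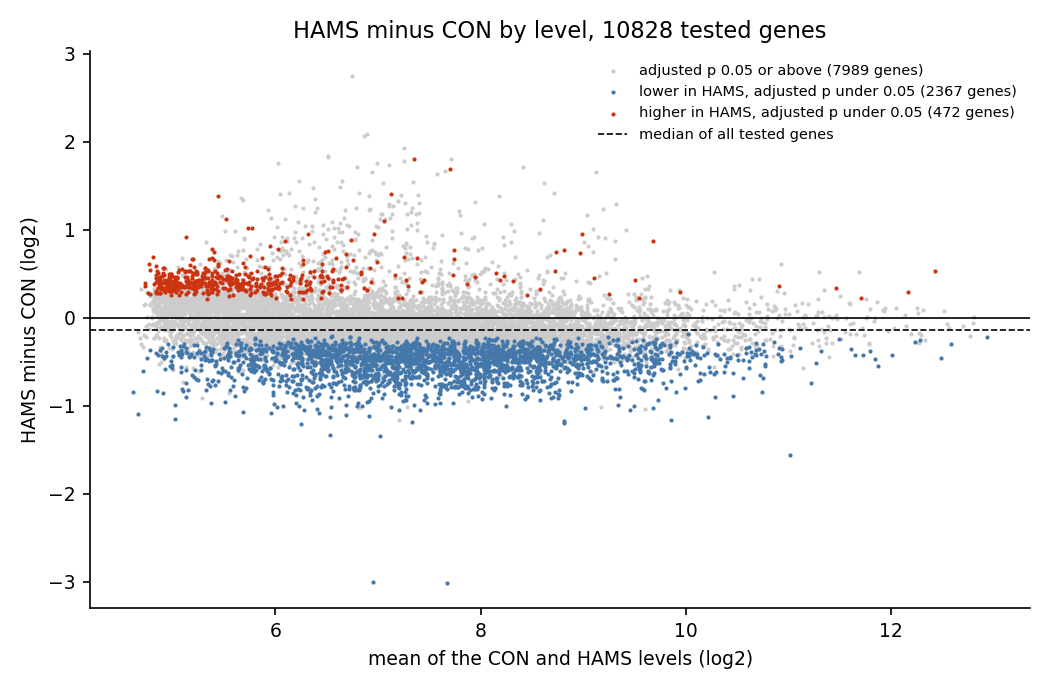
HAMS minus CON (log2, vertical axis) against the mean of both diets' levels (log2, horizontal axis) for the 10828 tested genes; red points are the 472 genes called higher, blue points the 2367 called lower, and the dashed line is the median of all genes at −0.14. The genes called higher crowd at low levels, and 2 points near −3.01, Retnlb and Retnla, stand apart below all others.

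The largest falls of the comparison were those of 2 genes of the resistin-like family. Retnlb encodes resistin-like molecule beta, a goblet cell protein secreted into the lumen, and Retnla encodes its relative resistin-like molecule alpha. Because the pair moved together and the genes are paralogs on chromosome 11, the 250 bases before the annotated start of each (RefSeq, build GRCr8, minus strand, printed 5′ to 3′ towards the start) are shown here. The window is chr11:65448320-65448569 for Retnlb and chr11:65426187-65426436 for Retnla; capitals mark a match to TTTATNG on either strand, a motif of the intestinal homeobox factor CDX2.
Retnlb: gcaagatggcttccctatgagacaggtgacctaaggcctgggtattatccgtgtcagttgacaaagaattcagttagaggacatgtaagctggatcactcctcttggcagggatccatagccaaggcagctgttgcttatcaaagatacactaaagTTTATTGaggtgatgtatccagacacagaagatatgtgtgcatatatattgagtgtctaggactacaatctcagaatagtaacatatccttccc
Retnla: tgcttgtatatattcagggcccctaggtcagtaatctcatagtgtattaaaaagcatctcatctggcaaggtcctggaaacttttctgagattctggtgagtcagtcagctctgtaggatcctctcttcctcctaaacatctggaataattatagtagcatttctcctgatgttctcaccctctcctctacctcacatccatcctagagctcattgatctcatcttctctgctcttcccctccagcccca

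The Retnlb window held 1 match to TTTATNG, starting 94 bases before the gene, and the Retnla window held 0. Among the 33469 windows of this length in the table, 10.1% held a match. Compared base by base without gaps, the windows agreed at 64 of 250 positions. A match is a description of the letters and not of binding. The gene of CDX2 itself had a level of 8.65 ± 0.39 in CON and 8.05 ± 0.37 in HAMS, a difference that did not pass (adjusted p = 0.0642).

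Retnlb had levels of 6.54, 9.28, 10.20, 9.81 and 10.05 in the CON arrays, and in HAMS it ran from 4.52 over a median of 6.01 to 8.34. The CON rat at 6.54 lay within the HAMS range, and the other CON rats lay above every HAMS rat. Its difference was −3.01 ± 0.68, an 8.06-fold lower level (limma adjusted p = 0.00225). Retnla had levels of 6.15, 8.65, 9.52, 8.60 and 9.34 in CON, with the low value in the same rat as for Retnlb. In HAMS, Retnla ran from 3.85 over 5.29 to 7.44, and it fell by 3.01 ± 0.67 (limma adjusted p = 0.00205). The 2 sequences are related, so probes of one may read the other, and the differences are not independent. Without that CON rat (replicate 1), the Retnlb difference was −3.67 and that of Retnla −3.58. Within the low file-name numbers, which hold that rat, the differences were −1.09 (limma adjusted p = 0.546) and −1.40 (limma adjusted p = 0.433), against −4.24 and −4.04 within the high numbers. With name style as a block they were −2.65 and −2.50 and with the lymphoid level as a covariate −2.78 and −2.69, all 4 still called; with both together, −2.23 and −1.86 did not pass (limma adjusted p = 0.201 and 0.294). With the array spread as a covariate Retnlb was at −2.93 (limma adjusted p = 0.036) and Retnla at −2.65, where it did not pass (limma adjusted p = 0.0521).

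Mptx1, mucosal pentraxin, a colon-enriched relative of the serum pentraxins, also fell. Its CON levels were 11.12, 11.72, 12.04, 12.21 and 11.91, and its HAMS levels ran from 6.95 over 10.53 to 11.86. The groups overlapped, and the HAMS rat at 6.95 stood far below the next at 9.72. The difference was −1.56 ± 0.46 (limma adjusted p = 0.0131), and it was −1.19 with the lymphoid level as a covariate (limma adjusted p = 0.0616) and −1.14 with name style as a block (limma adjusted p = 0.144). Within the low file-name numbers the Mptx1 difference was −0.45 (limma adjusted p = 0.656) and within the high numbers −2.25 (limma adjusted p = 0.0312). It was −0.89 with the array spread as a covariate (limma adjusted p = 0.296) and −0.40 with name style and the lymphoid level together (limma adjusted p = 0.798). Itln1, intelectin, a lectin that binds microbial sugars, had CON levels of 10.02, 10.19, 10.92, 10.36 and 10.69 and ran from 7.81 over 9.12 to 10.68 in HAMS. It fell by 1.16 ± 0.37 (limma adjusted p = 0.0185), with 2 HAMS rats inside the CON range; without CON replicate 3 the adjusted p was 0.057. The Itln1 call was also lost with the arrays centred (−0.99, limma adjusted p = 0.0564), with the lymphoid level (−0.71, limma adjusted p = 0.111), with name style as a block (−1.12, limma adjusted p = 0.0705) and with both together (−0.33, limma adjusted p = 0.763). With the array spread as a covariate it was −1.04 (limma adjusted p = 0.153), and neither number range alone gave a call (limma adjusted p = 0.0651 and 0.155).

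**Figure D3:**
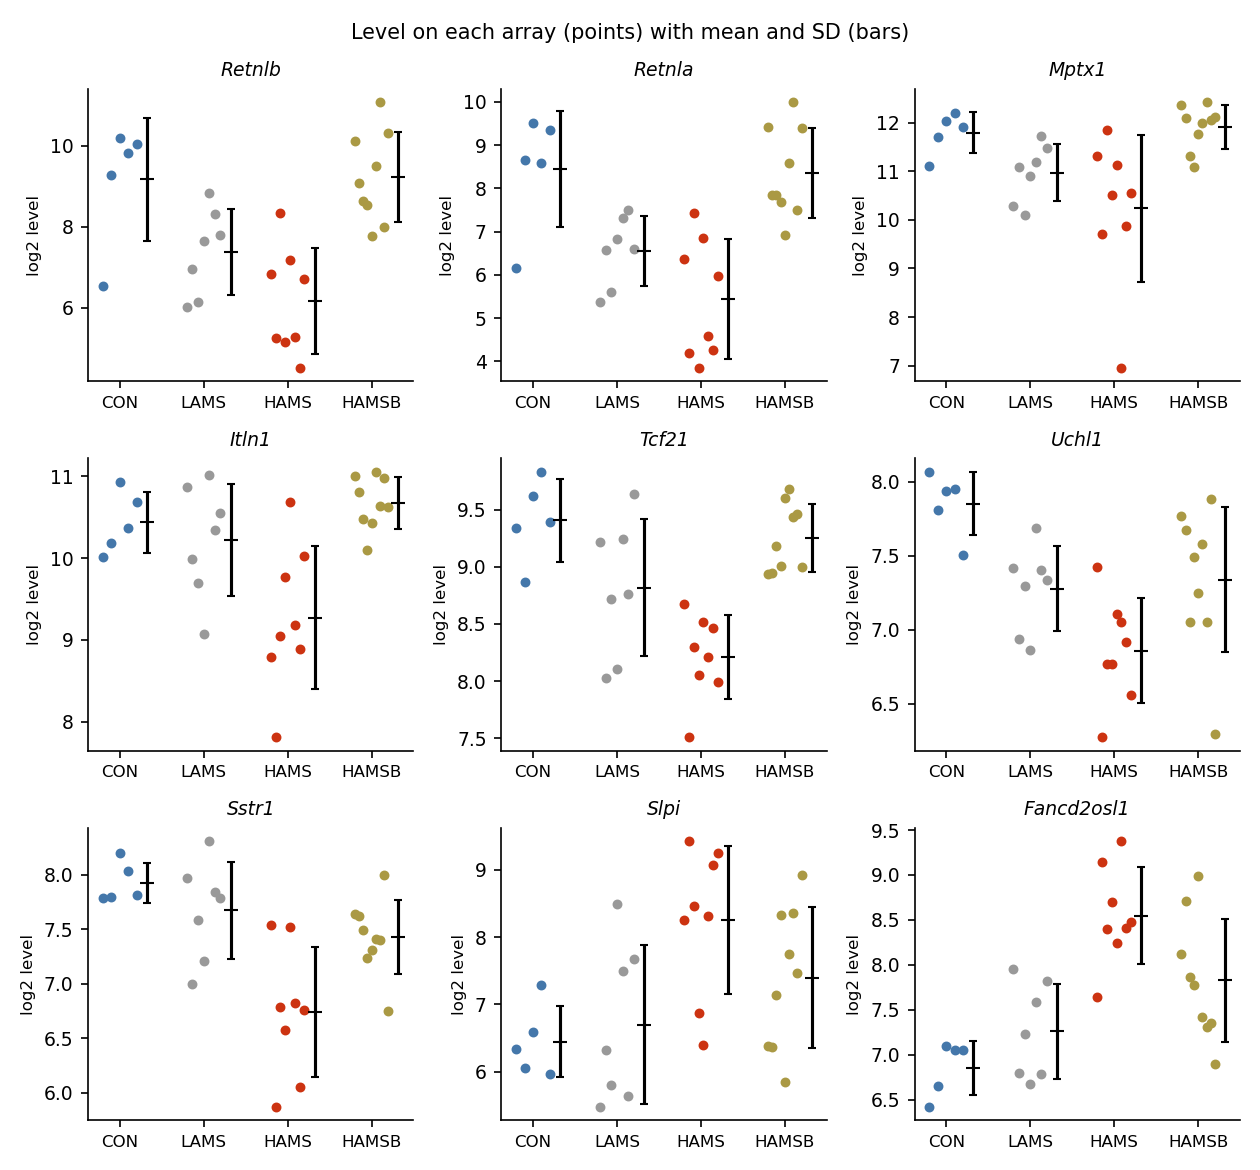
Log2 level on each array (points, in replicate order) with mean and SD (black) in CON (n = 5), LAMS (n = 7), HAMS (n = 8) and HAMSB (n = 9) for 9 genes named in the text; each panel has its own vertical axis. Retnlb and Retnla are low in HAMS and intermediate in LAMS, the HAMSB points sit near CON, and the HAMS points of Fancd2osl1 lie above all CON points.

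The same 4 genes were set beside the other diets, whose comparisons share the CON or the HAMS arrays. LAMS minus CON was −1.79 ± 0.70 for Retnlb and −1.90 ± 0.69 for Retnla, neither of which passed (limma adjusted p = 0.41 and 0.356). The test of HAMS against LAMS did not pass either, at −1.22 ± 0.61 and −1.10 ± 0.61 (limma adjusted p = 0.154 and 0.192). HAMS was lower than HAMSB by a difference of −3.06 ± 0.58 for Retnlb and −2.91 ± 0.57 for Retnla (limma adjusted p = 0.00129 and 0.00162), while HAMSB minus CON was 0.05 and −0.10. For Mptx1 HAMS minus LAMS was −0.73 ± 0.42 (limma adjusted p = 0.209) and HAMS minus HAMSB −1.68 ± 0.39 (limma adjusted p = 0.00481). Itln1 was lower in HAMS than in both, by −0.95 ± 0.33 against LAMS (limma adjusted p = 0.0491) and −1.40 ± 0.31 against HAMSB (limma adjusted p = 0.00361).

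Gene lists of cell types and pathways are described by how many tested members rose or fell, to be read against the 4.36% and 21.9% of all genes, and by their median difference beside the −0.14 of all genes. Among 19 tested genes of goblet cells and mucus, 0 rose and 13 fell, with a median of −0.54. Beside Retnlb and Itln1 the falls included Agr2, a disulphide isomerase needed for mucin folding (11.16 ± 0.29 in CON, 10.32 ± 0.66 in HAMS, difference −0.85 ± 0.24), and Spdef, a transcription factor of goblet cell maturation (−0.59 ± 0.18). Clca1, a secreted mucus-processing protease, had CON levels from 12.62 to 12.89 and HAMS levels from 11.95 over 12.21 to 12.61. These ranges did not overlap, and Clca1 fell by 0.46 ± 0.11 (limma adjusted p = 0.00241). Members that did not pass included the trefoil peptide Tff3 (−0.32 ± 0.21) and the mucus lectin Zg16 (0.88 ± 0.49). With the arrays centred, and likewise with the lymphoid level as a covariate, 2 members fell and 1 rose (medians −0.36 and −0.27). With name style as a block 6 fell, with the array spread as a covariate 1 fell (median −0.33), and with block and lymphoid level together 0 passed (median −0.05).

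The list with the largest share of falls belonged to cells beneath the epithelium. Of 19 tested fibroblast and matrix genes 16 fell and 0 rose (median −0.62), and all 19 lay below the median of all genes. Aspn, asporin, a collagen-binding proteoglycan, had CON levels of 7.75, 6.88, 7.03, 7.65 and 6.67 and HAMS levels from 4.36 over 5.53 to 7.29, with overlap. It fell by 1.33 ± 0.34 (limma adjusted p = 0.00551). Pdgfra, the PDGF receptor of mesenchymal cells, ran from 8.63 to 9.31 in CON and from 7.58 over 8.14 to 8.53 in HAMS, without overlap, and fell by 0.83 ± 0.16 (limma adjusted p = 0.000562). Decorin (Dcn, −0.90 ± 0.18) and collagen Col1a1 (−0.44 ± 0.15) also fell, and periostin (Postn) fell by 1.00 ± 0.24, while biglycan (Bgn, −0.21) did not pass. With the arrays centred 12 members fell, with the lymphoid level as a covariate 12, with name style as a block 11, and with block and lymphoid covariate together 0 (median −0.18). With the array spread as a covariate 3 fell (median −0.41).

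Tcf21, a helix-loop-helix factor of mesenchyme, kept its call under nearly every setting. Its CON levels were 9.34, 8.86, 9.62, 9.83 and 9.39, and its HAMS levels ran from 7.51 over 8.25 to 8.68, so every HAMS rat lay below every CON rat. The difference was −1.19 ± 0.23 (limma adjusted p = 0.000562). It was called in 31 of 32 alternatives, 13 of which left out 1 array each. The exception was the low file-name numbers alone (−0.94, limma adjusted p = 0.134). Sstr1, the somatostatin receptor 1, had CON levels of 7.79, 7.79, 8.20, 8.04 and 7.82 and HAMS levels from 5.87 over 6.78 to 7.54, again without overlap. It fell by 1.18 ± 0.25 (limma adjusted p = 0.00116) and was likewise called in 31 of 32 alternatives. Abca8a, a lipid transporter of the ABC family, fell by 1.21 ± 0.22 (limma adjusted p = 0.000523), with the highest HAMS and the lowest CON level both rounding to 6.28.

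Enteric neuron and glia genes numbered 19 tested members, of which 13 fell and 0 rose (median −0.59). Averaged over these genes, the CON arrays ran from 6.29 to 6.52 and the HAMS arrays from 5.47 over 5.92 to 6.15, without overlap. The LAMS arrays (5.70 to 6.23) also lay below every CON array, while the HAMSB arrays (5.61 to 6.45) overlapped CON. Uchl1, a ubiquitin hydrolase abundant in neurons, had CON levels of 8.06, 7.81, 7.93, 7.95 and 7.50 and HAMS levels from 6.27 over 6.84 to 7.42. It fell by 0.99 ± 0.20 (limma adjusted p = 0.000866). Chrna3, a nicotinic receptor subunit of autonomic neurons, ran from 7.06 to 7.41 in CON and from 5.75 over 6.38 to 6.76 in HAMS and fell by 0.82 ± 0.17 (limma adjusted p = 0.00106). Both were called in 31 of 32 alternatives. Calretinin (Calb2), a calcium-binding protein of excitatory neurons, fell by 1.13 ± 0.29. Other falls were the neurofilament gene Nefl (−1.03 ± 0.25), peripherin (Prph, −0.91 ± 0.21), the relaxing neuropeptide gene Vip (−0.77 ± 0.21) and nitric oxide synthase Nos1 (−0.54 ± 0.16). The glial members, picked out after the values were seen, did not pass: Sox10 had a difference of 0.06 ± 0.10, Gfap of 0.18 ± 0.11 and S100b of −0.17 ± 0.24. Scn7a, an atypical sodium channel of glia and neurons outside the list, fell by 1.34 ± 0.27 (limma adjusted p = 0.000845).

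The enteric list was also lower in LAMS minus CON, with a median of −0.41, against −0.26 in HAMSB minus CON and −0.18 in HAMS minus LAMS, where 0 of 19 members passed. For Uchl1 LAMS minus CON was −0.58 ± 0.20 (limma adjusted p = 0.328) and HAMS minus LAMS −0.42 ± 0.18 (limma adjusted p = 0.0977). The fibroblast list stood the other way, with a median of −0.09 in LAMS minus CON and −0.48 in HAMS minus LAMS, where 12 members fell against 14.2% of all genes called in either direction. Whether the lists differ in this respect was not tested. In the neuron list 8 members fell and 1 rose with the arrays centred, 7 fell with the lymphoid covariate, 15 fell with name style as a block and 3 fell with both (median −0.40). With the array spread as a covariate 5 neuron genes fell (median −0.60).

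**Figure D4:**
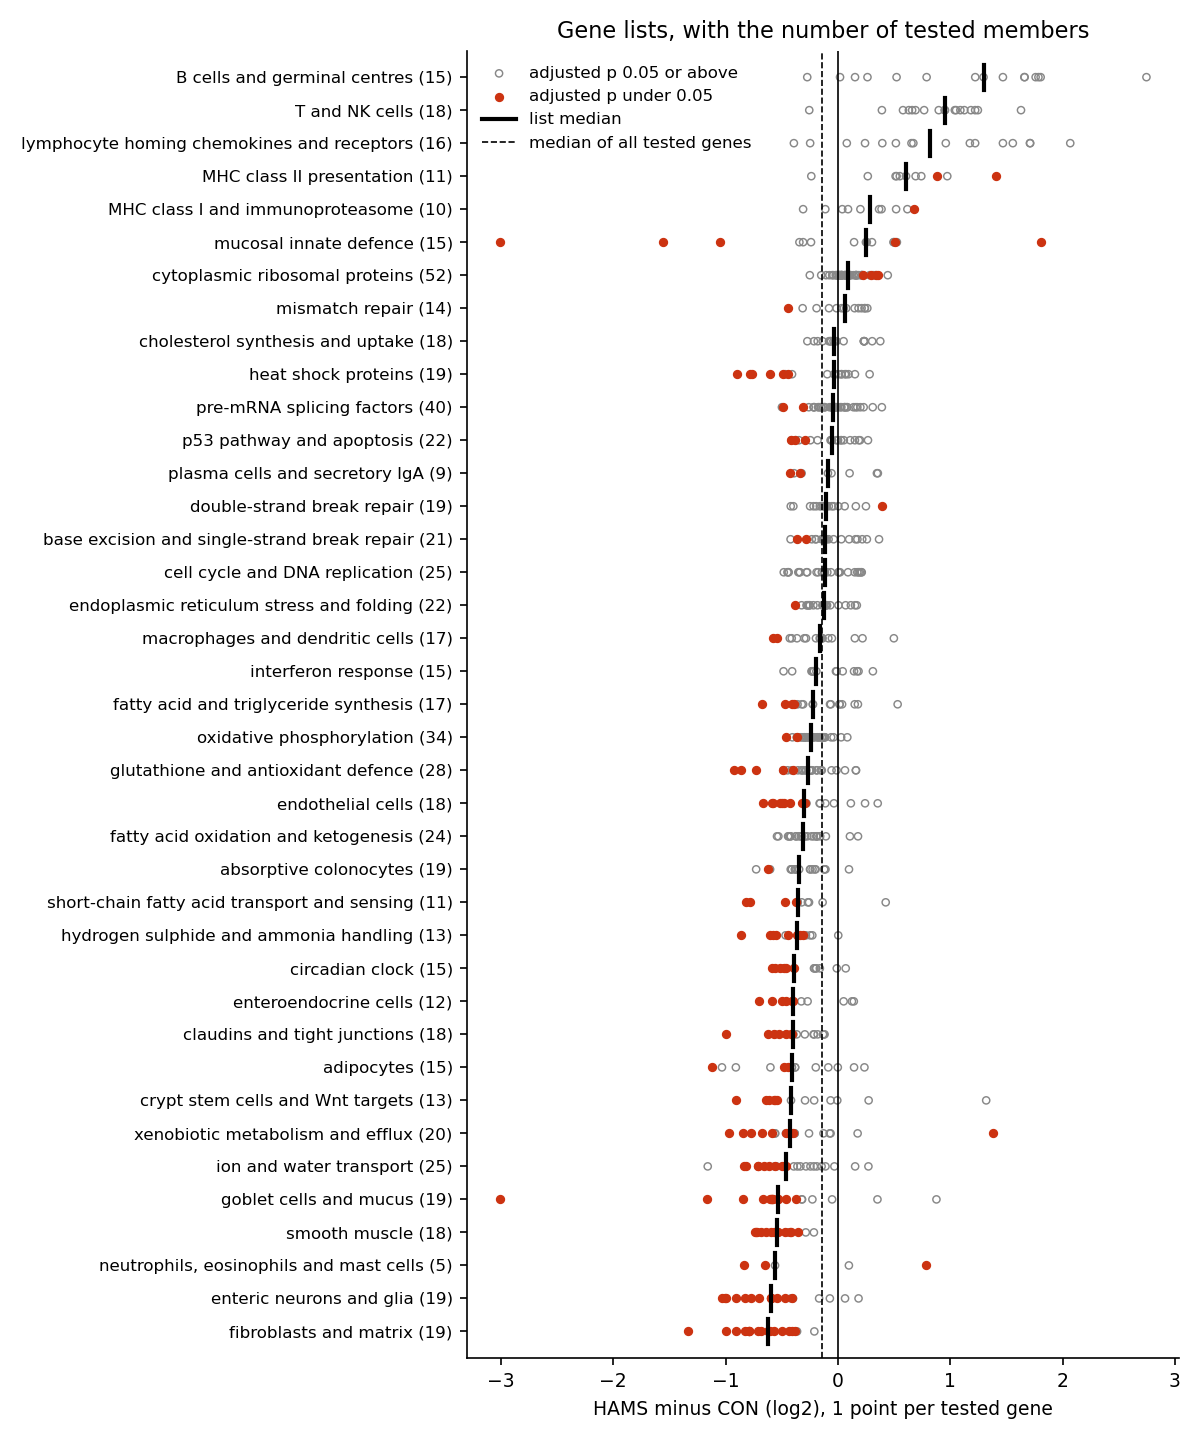
HAMS minus CON (log2) of each tested member of 39 gene lists, ordered by list median; red points passed adjusted p under 0.05, black bars are list medians, and the dashed line is the median of all genes. Fibroblast, neuron, smooth muscle and goblet lists lie to the left with most members called, and lymphocyte lists lie far to the right with open points.

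Smooth muscle genes followed with 15 falls and 0 rises among 18 tested (median −0.55). Myocd, the myocardin coactivator of the contractile programme, ran from 6.89 to 7.60 in CON and from 6.23 over 6.50 to 6.81 in HAMS, without overlap, and fell by 0.73 ± 0.15 (limma adjusted p = 0.000876). Smooth muscle myosin Myh11 went from 12.14 ± 0.32 to 11.60 ± 0.37 (−0.55 ± 0.15). Smooth muscle actin Acta2 had a difference of −0.21 ± 0.09 and did not pass (limma adjusted p = 0.0608). With name style as a block 11 of the 18 members fell (median −0.57). With the arrays centred 2 fell, with the lymphoid covariate 4, with the array spread 2, and with name style and the lymphoid level together 0 (median −0.25). Endothelial genes gave 9 falls and 0 rises of 18 (median −0.30), among them the vascular growth factor receptor Kdr (−0.50 ± 0.13) and the junction protein Esam (−0.58 ± 0.13). The list was also lower in LAMS minus CON (median −0.21) and HAMSB minus CON (−0.22), against −0.09 in HAMS minus LAMS. Averaged over these genes, CON arrays lay at 6.86 or above, and LAMS, HAMS and HAMSB arrays reached at most 6.81, 6.76 and 6.83. The endothelial count was 9 falls with the lymphoid covariate, 7 falls with name style as a block, and 5 falls and 2 rises with the arrays centred. It was 0 calls with the array spread or with name style and the lymphoid level together. Adipocyte genes gave 3 falls of 15, near the 21.9% of all genes that fell. With centring, the lymphoid level or the array spread 1 fell, and with name style as a block 2. Pck1, phosphoenolpyruvate carboxykinase of gluconeogenesis and of fat cells, fell by 1.12 ± 0.25 (limma adjusted p = 0.00205), while adiponectin (Adipoq, −0.91 ± 0.55) did not pass.

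Other epithelial lists also had medians below that of all genes. Of 19 absorptive colonocyte genes 1 fell, keratin Krt18 (−0.63 ± 0.16), and the median was −0.35; with name style as a block 4 fell. Guanylin (Guca2a, −0.35 ± 0.21) and uroguanylin (Guca2b, −0.42 ± 0.23), the ligands of the epithelial guanylate cyclase receptor, did not pass. Guca2b was called lower once name style was a block (−0.80, limma adjusted p = 0.0384), as it was with block and lymphoid level together (−1.09, limma adjusted p = 0.0491). Enteroendocrine genes gave 6 falls and 0 rises of 12 (median −0.40), with chromogranin A (Chga) at 6.66, 6.74, 6.83, 6.34 and 6.35 in CON and from 5.92 over 6.05 to 6.49 in HAMS, a fall of 0.46 ± 0.11 (limma adjusted p = 0.00378) with overlap. With the arrays centred 0 enteroendocrine genes passed, Chga included (−0.29, limma adjusted p = 0.102), while 2 fell with the lymphoid level, 6 with name style as a block and 1 with the array spread. Crypt stem cell and Wnt target genes gave 6 falls of 13, led by Lgr5, the stem cell receptor for R-spondin (−0.90 ± 0.25), and including the Wnt inhibitors Rnf43 (−0.54 ± 0.16) and Nkd1 (−0.57). Of these crypt genes 1 fell with the arrays centred, 6 fell and 1 rose with name style as a block, and 0 passed with the lymphoid level or the array spread. Tcf7, a Wnt effector that T cells also express, had 1.32 ± 0.78 and did not pass.

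Ion and water transport genes showed 9 falls and 0 rises of 25 (median −0.46). Kcne3, the potassium channel subunit that sets the driving force for chloride secretion, ran from 6.99 to 7.70 in CON and from 6.05 over 6.52 to 7.06 in HAMS and fell by 0.83 ± 0.22 (limma adjusted p = 0.00581). Falls were also counted for the basolateral cotransporter Slc12a2 (−0.62), the mineralocorticoid receptor Nr3c2 (−0.71) and the sodium channel subunit Scnn1a (−0.71), while the sodium-proton exchanger Slc9a3 missed the threshold at −1.16 ± 0.45 (limma adjusted p = 0.0535). Tight junction and claudin genes gave 7 falls and 0 rises of 18 (median −0.40). Cldn8, a sodium-sealing claudin of the distal colon, ran from 7.04 to 7.58 in CON and from 5.43 over 6.23 to 7.48 in HAMS and fell by 1.00 ± 0.26 (limma adjusted p = 0.00613). For Kcne3 and Cldn8, LAMS minus CON was 0.04 and 0.05, and HAMS was lower than LAMS by −0.87 ± 0.20 and −1.05 ± 0.24 (limma adjusted p = 0.00812 for both). With the lymphoid covariate 3 transport members and 1 junction member fell, and with name style and the covariate together, or with the array spread, 0 of either. Centring left 4 and 1, and name style as a block 7 and 2.

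No gene on the lists that handle the products of fermentation passed upward with the values as deposited and no covariate. Of 11 genes that transport or sense short-chain fatty acids, 4 fell and 0 rose: the mitochondrial synthetase Acss3 (−0.82 ± 0.22), the nuclear receptor Ppara (−0.78 ± 0.18), the butyrate and niacin receptor Hcar2 (−0.47 ± 0.15) and the transporter chaperone Bsg (−0.37). The monocarboxylate transporter Slc16a1 ran from 9.88 to 10.56 in CON and from 9.25 over 9.97 to 10.51 in HAMS, a difference of −0.32 ± 0.17 that did not pass (limma adjusted p = 0.138), although HAMS was lower than LAMS (−0.54 ± 0.15, limma adjusted p = 0.0198). Of 24 fatty acid oxidation and ketogenesis genes 0 passed (median −0.31); the mitochondrial carnitine acyltransferase Cpt1a was at −0.37 ± 0.20 and Cpt2 at −0.44 ± 0.17 (limma adjusted p = 0.144 and 0.0513). Of 34 oxidative phosphorylation subunits 2 fell, Ndufa10 (−0.46 ± 0.16) and Ndufs7 (−0.37 ± 0.11), with a list median of −0.24 that became −0.06 after centring, where 0 passed. With name style as a block 14 of the 34 fell (median −0.44), and with the lymphoid level 0 passed (median 0.02). Name style as a block gave 3 falls among the fatty acid oxidation genes. Centring gave 1 rise and 2 falls on the short-chain fatty acid list and 1 rise on the fatty acid oxidation list. The array spread gave 0 calls on both. On the short-chain fatty acid list the lymphoid level also gave 1 rise and 2 falls, and name style as a block 3 falls.

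Genes that dispose of sulphide and ammonia, products of protein breakdown by colonic bacteria, gave 8 falls and 0 rises of 13 (median −0.37). They included the sulphide-oxidising enzymes Sqor (−0.58 ± 0.19) and Ethe1 (−0.55 ± 0.16), the cysteine lyase Cth (−0.86 ± 0.26) and the urea cycle enzyme Asl. Asl had CON levels from 6.87 to 7.08 and HAMS levels from 6.40 over 6.52 to 6.75, without overlap, and fell by 0.45 ± 0.08 (limma adjusted p = 0.000562). With centring, with the lymphoid covariate or with the array spread 1 of the 13 fell, and with name style as a block 6. Xenobiotic genes gave 7 falls and 1 rise of 20 (median −0.43), among the falls the retinal dehydrogenase Aldh1a1 (−0.97 ± 0.33) and the aryl hydrocarbon receptor Ahr (−0.46 ± 0.14). With centring, and with name style as a block, 1 xenobiotic gene fell and 1 rose, and with the lymphoid level or the array spread 0 passed. Glutathione and antioxidant genes gave 5 falls of 28, a share below the 21.9% of all genes that fell. The falls numbered 2 with centring, 3 with the lymphoid level, 1 with the array spread and 6 with name style as a block. Among the 5 were the secreted peroxidase Gpx3, which fell by 0.93 ± 0.17 (limma adjusted p = 0.000544), and the microsomal transferase Mgst1 (−0.87 ± 0.23). Fads2, the fatty acid desaturase, fell by 0.67 ± 0.12. It was 1 of 4 falls among 17 genes of fatty acid and triglyceride synthesis, about the share of all genes. Centring, the lymphoid level or the array spread left 1 fall, and name style as a block 3.

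Among 15 circadian clock genes 6 fell and 0 rose (median −0.39): Clock (−0.59 ± 0.18), Per2 (−0.56 ± 0.20), Bmal1 (−0.48 ± 0.14), Nfil3 (−0.52 ± 0.14), Bhlhe40 (−0.46) and Per3 (−0.39). Bmal1 and Per2, whose transcripts oscillate in opposite phase, lay on the same side, and sampling times were not given in the sources used here. After centring, or with the array spread, 0 of the 15 passed, and with the lymphoid level or name style as a block 1 fell. Heat shock genes gave 6 falls of 19, among them Hspb1 (−0.90 ± 0.21) and Cryab (−0.60), small chaperones that muscle expresses too, while the cytosolic chaperones Hspa8 (−0.09) and Hsp90ab1 (0.07) did not pass. With centring 2 heat shock genes fell, with the lymphoid level 3, with name style as a block 5 and with the array spread 0.

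Genes of DNA repair and cell division gave few calls. Among 21 genes that repair single bases or single-strand breaks 2 fell, Parp2 (−0.36 ± 0.12) and the ligase Lig1 (−0.28 ± 0.11). Lig1 passed narrowly (limma adjusted p = 0.0492) and was called in 7 of 32 alternatives. After centring 3 of the 21 rose and 0 fell, and with name style as a block, the lymphoid level or the array spread 0 passed. Among 14 mismatch repair genes 1 fell, Mlh3 (−0.45 ± 0.16), although 3 rose and 0 fell after centring and 4 rose with name style as a block. Among 19 double-strand break repair genes 1 rose, Xrcc2 (0.39 ± 0.12). The p53 and apoptosis list gave 3 falls of 22, the ubiquitin ligase Mdm2 (−0.41 ± 0.12), the death receptor Fas (−0.38) and Bad (−0.29 ± 0.09). That share was below the 21.9% of all genes that fell. Of 25 cell cycle genes and 18 cholesterol genes 0 passed; in the whole comparison 4435 genes had an unadjusted p under 0.05. The medians of the base excision, cell cycle, double-strand break, p53 and cholesterol lists, between −0.12 and −0.03, were above 0 after centring. Cytoplasmic ribosomal proteins had a median of 0.09, with 4 rises of 52, Rps2, Rps3, Rpl8 and Rps23, the last at 0.36; 8 rose after centring and 0 with the lymphoid level.

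The lymphocyte lists had the largest positive medians of all lists, yet none of their members passed. Of 15 B cell and germinal centre genes 14 had a difference above 0, with a median of 1.30, and 0 passed. The complement receptor Cr2 of B cells and follicular dendritic cells was at 5.37 ± 2.33 in CON and 8.12 ± 2.48 in HAMS (2.75 ± 1.34, limma adjusted p = 0.117). Cd79b, a subunit of the B cell receptor, was at 1.80 ± 0.74 (limma adjusted p = 0.0639). The 18 genes typical of T and NK cells had a median of 0.95, and 0 passed, with Cd3e of the T cell receptor complex at 1.25 ± 0.74. Of 16 lymphocyte homing genes 0 passed (median 0.82), with the follicle chemokine Ccl19 at 2.07 ± 0.98 (limma adjusted p = 0.108). Within each diet some rats were high and others low, as the range of the lymphoid level from 6.27 to 9.04 in HAMS shows. With the arrays centred 2 genes of each of these lists rose, and with the array spread as a covariate 0. With name style as a block 10 B cell, 5 T cell and 6 homing genes rose (medians 1.91, 1.54 and 1.43). With the lymphoid level as a covariate, which holds the B cell genes themselves, 0 of each rose.

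Among 11 genes of MHC class II presentation 2 rose and 0 fell (median 0.61). With centring 4 rose, with name style as a block 6, and with the lymphoid level or the array spread 0. RT1-DOb and RT1-DOa encode the chains of the DO molecule, a B cell modulator of peptide loading. RT1-DOb had CON levels of 5.82, 6.26, 6.46, 5.90 and 7.68, the high value in the CON rat of high lymphoid level, and ran from 6.06 over 8.23 to 9.17 in HAMS. It rose by 1.41 ± 0.52 (limma adjusted p = 0.0394), but the call was lost in 9 of 13 runs that left out 1 array and with the lymphoid covariate (0.30). RT1-DOa rose by 0.88 ± 0.29 (limma adjusted p = 0.0219). Among other rises, Sit1, an adaptor that dampens T cell receptor signals (1.12 ± 0.39), Pou2f2, the OCT2 factor of B cells (0.95 ± 0.28), Gmfg, an actin regulator of leukocytes (0.95 ± 0.32), Napsa, an aspartic protease (1.10 ± 0.41), and RT1-CE5, a class I gene of a multigene family whose probes may read its relatives (0.67 ± 0.23), had their highest CON value in that same rat.

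Slpi, secretory leukocyte protease inhibitor, an antimicrobial protein of epithelia, had the largest rise. Its CON levels were 6.34, 6.05, 6.59, 7.29 and 5.97, and in HAMS it ran from 6.40 over 8.39 to 9.42. Of the HAMS rats 6 lay at 8.25 or above, and those at 6.40 and 6.88 overlapped CON. It rose by 1.81 ± 0.53, a 3.50-fold higher level (limma adjusted p = 0.0122), and by 1.26 with the lymphoid covariate, where it did not pass (limma adjusted p = 0.0675). Slpi was also higher in HAMS than in LAMS (1.55 ± 0.48, limma adjusted p = 0.0293), and HAMSB minus CON was 0.95 (limma adjusted p = 0.285). In the mucosal defence list of 15 genes 2 rose, Slpi and the inducible nitric oxide synthase Nos2 (0.51 ± 0.13), and 3 fell, Retnlb, Mptx1 and the epithelial cytokine Il18, which fell by 1.05 ± 0.26 (limma adjusted p = 0.0046).

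Fancd2osl1 had the widest gap between the diets among the 12 largest rises. Its CON levels were 6.42, 6.65, 7.10, 7.05 and 7.05 and its HAMS levels ran from 7.64 over 8.45 to 9.38, with no overlap. It rose by 1.70 ± 0.34 (limma adjusted p = 0.00098) and was higher than in LAMS by 1.29 ± 0.31 (limma adjusted p = 0.0104). With name style as a block the difference was 0.65 (limma adjusted p = 0.0978) and with the array spread as a covariate 0.64 (limma adjusted p = 0.129). With name style and the lymphoid level together it was 0.41 (limma adjusted p = 0.566). HAMSB minus CON was 0.97 for Fancd2osl1 (limma adjusted p = 0.11). Cyp2s1, a cytochrome P450 of epithelia, rose by 1.38 ± 0.43 from a CON mean of 4.75, under the signal floor, as did Ccdc69 (0.91 ± 0.30) from 4.67; for both, the difference may understate the change. The unnamed locus LOC366310 rose by 0.95 ± 0.19 without overlap (CON at most 6.74, HAMS at least 6.98), Acsbg1, an acyl-CoA synthetase, by 1.02 ± 0.26, and Pdlim2, a PDZ and LIM domain protein, by 1.02 ± 0.33. Remaining falls by size were Scin, an actin-severing protein (−1.18 ± 0.26), and Med14, a Mediator subunit (−1.15 ± 0.32), whose HAMS mean of 4.45 lay under the floor.

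Counts on the myeloid and plasma cell lists are to be read against the 21.9% of all genes that fell and the 4.36% that rose. Of 17 macrophage and dendritic cell genes 2 fell, the mannose receptor Mrc1 (−0.58 ± 0.16) and the scavenger receptor Cd163 (−0.54 ± 0.19). Of 5 tested granulocyte and mast cell genes 1 rose, Prg2 of eosinophil granules (0.79 ± 0.28), and 2 fell, the mast cell protease Cpa3 (−0.84 ± 0.29) and Kit (−0.65 ± 0.16), the receptor of mast cells and of the pacemaker cells of gut muscle. Among 9 plasma cell and secretory IgA genes 2 fell, the epithelial IgA transporter Pigr (−0.42 ± 0.15) and Prdm1 (−0.33 ± 0.13). In the interferon list 0 of 15 passed. With name style as a block or the array spread 0 macrophage, granulocyte or plasma cell genes passed. Centring gave 0 calls among macrophage genes, 1 rise and 1 fall among granulocyte genes and 1 rise among plasma cell genes. With the lymphoid level 3 macrophage genes and 1 granulocyte gene fell, and 0 plasma cell genes passed.

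Beside HAMS minus CON, HAMSB minus CON called 91 genes (0.84%), 39 higher and 52 lower, with the same control arrays. Of the genes named here Pdgfra (−0.59, limma adjusted p = 0.0498), Asl (−0.33, limma adjusted p = 0.0447) and Mdm2 (−0.53, limma adjusted p = 0.0347) passed in it. Guanylate cyclase ligand Guca2b was lower in HAMS than in HAMSB (−0.99 ± 0.20, limma adjusted p = 0.00187), as were Chga (−0.50 ± 0.10), Pck1 (−1.12 ± 0.21) and Tcf21 (−1.03 ± 0.19), each with limma adjusted p between 0.00122 and 0.00187. Uchl1 was lower than in HAMSB by −0.48 ± 0.17 (limma adjusted p = 0.0441).

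How the list medians move with the model is drawn for 14 lists. With name style and the lymphoid level in the model together, 67 genes were called in all (3 higher, 64 lower), and 6 of them were among the named genes: Tcf21, Sstr1, Uchl1, Chrna3, Chga and Guca2b. All but Chga (limma adjusted p = 0.0326) were close to the threshold, with a limma adjusted p of 0.0491 each. In that fit Tcf21 was at −0.77 and Sstr1 at −0.66.

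**Figure D5:**
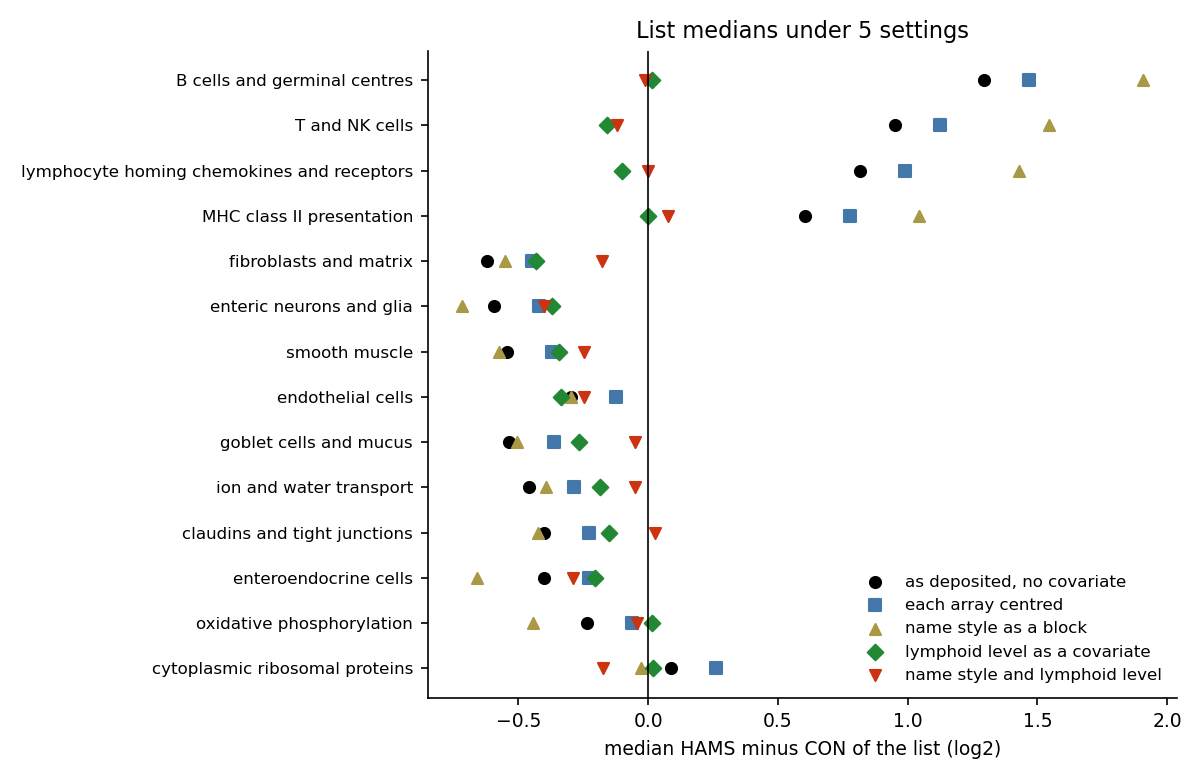
Median HAMS minus CON (log2) of 14 gene lists under 5 settings, 1 marker shape per setting. The lymphocyte and MHC class II lists move from between 0.61 and 1.30 to near 0 when the lymphoid level is a covariate. That covariate is the mean of the B cell list itself, so the move of this list is fixed in advance. The enteric neuron list stays between −0.72 and −0.37 in all 5 settings.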

How the data were processed

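The authors deposited log2 expression values, and per the submitters' processing notes these came from RMA (version not given). As usually run, RMA corrects background, gives the probe values of all arrays 1 common distribution and summarises probes. The deposited probe set values did not share 1 distribution, as their interquartile range ran from 2.68 to 3.40 over the 43 arrays. The reason was not tested. Of 29214 probe sets, 15310 have 1 gene symbol in the platform annotation, 323 several and 13581 none; for each of 14506 symbols the probe set of highest mean over 43 arrays was used. Genes were kept when their median reached 4.79, the 25th percentile of probe sets with 1 symbol, which left 10828. A mean per diet was fitted to all 43 arrays with limma 3.58.1 in R 4.3.3 (lmFit, eBayes), two-sided, with Benjamini-Hochberg adjustment over all tested genes and a threshold of 0.05; the procedure was tested on simulated data. Array measures were compared by exact permutation in scipy 1.17.1 under Python 3.11.15, and figures drawn with matplotlib 3.10.9. The arrays hold no reads, so depth does not apply, and the number of rats limits the precision. The limma p-values rest on the spread between arrays within diets, pooled over all 6 diets and not taken from CON and HAMS alone. A fit of CON and HAMS alone called 1905 genes.

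The comparison and the 43 gene lists (760 of 952 entries tested) were chosen with earlier results of these data known. Lists are described by counts and medians, with no set test. Named genes are the 12 largest rises and 12 largest falls among the called genes, the 2 members of smallest p among a list's called members (or 1 of smallest p where a list has none), and a few fixed genes, some of which are not reported here; further list members are named as examples chosen after their values were seen. Alternatives comprised filters, probe set choices, the prior, array weights, a fit of both diets alone, centring, blocks by file name style, by the range of the number in the file name and by replicate number, the lymphoid level and array spread as covariates, and leaving out each array. Quantile normalisation of the deposited values, alone and with the lymphoid level, and a diet by number range term were chosen after seeing the data. Promoter windows come from RefSeq, build GRCr8; raw scanner files were not used here.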

Additional observations from a re-analysis of the deposited data

Results flagged for a closer look

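Among 196 groups of values examined (the named genes and 2 array measures in CON and in HAMS), 13 held 1 rat far from the others of its diet; chance alone marks about 1 in 20 groups. Of these, 6 concern CON replicate 5. Its lymphoid level was 8.08, against 6.26 to 6.55 in the other CON rats. Its levels were also high for Ccr6 (7.62, others at most 5.84), Napsa (7.77, others at most 6.48), Pou2f2 (6.64, others at most 5.74), RT1-CE5 (7.98, others at most 6.96) and Sit1 (5.84, others at most 4.89). Without that rat 3319 genes were called in HAMS minus CON.

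CON replicate 1 was low for Retnla (6.15, others at least 8.60) and Retnlb (6.54, others at least 9.28). Without it the count of called genes was 1683.

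In HAMS, replicate 6 was low for Mptx1 (6.95, others at least 9.72) and Bad (6.14, others at least 6.48). HAMS replicate 2 was low for Lgr5 (4.91, others at least 5.82) and high for Mdm2 (7.94, others at most 7.54). HAMS replicate 7 was low for Xrcc2 (5.47, others at least 5.92). The part of these rats in each result beyond the runs without them was not tested.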

How the results depend on the processing

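The 2839 calls (472 higher, 2367 lower) stayed within 1.5 times with a trended and robust prior, with number range as a block, or when a symbol's probe sets were averaged. They became 4784 with all probe sets (1551 higher) and 4546 with array weights (1050 higher). Without the filter 944 were higher, under the stricter filter 77, and in a fit of CON and HAMS alone 282. Name style as a block gave 2191 calls (501 higher, 1690 lower), of which 1361 were also among the 2839. Centring gave 1733 (1068 higher, 665 lower), 1137 of them also among the 2839; both blocks 1182 (196, 986); the lymphoid covariate 1544 (1199 lower); the spread covariate 334 (65, 269); name style with the lymphoid level 67 (3, 64). Quantile normalisation, chosen after seeing the data, gave 1572 (314, 1258), and with the lymphoid level 647 (213, 434). Within the low number range 312 genes were called (29, 283), within the high range 1045 (131, 914). A diet by number range term, also added later, passed in 0 genes with limma, with 842 at an unadjusted p under 0.05. Leaving out 1 array gave 1683 (without CON replicate 1) to 3601 calls (without HAMS replicate 1), 200 to 685 of them higher and 1483 to 2916 lower. The cause of these changes was not tested.

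Replicate numbers did not pair the rats: over 5 CON and HAMS pairs of equal number the correlations of their deviations ran from −0.688 to 0.359. With the replicate block 2035 genes were called, 296 of them higher and 1739 lower, and 2009 were also among the 2839.

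The array spread differed in the same direction throughout; among the low numbers it was −0.234, where 0.2 is the smallest p that exact permutation allows. Leaving out 1 array gave −0.314 to −0.251 for it.

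Of 82 named genes called in HAMS minus CON, name style with the lymphoid level turned the sign of Cpa3 (0.31), Dnajc3 (0.13), Gmfg (−0.081) and Parp2 (0.021), and both blocks that of Mdm2 (0.0003) and Srsf3 (0.036), none of them called there. Under name style with the lymphoid level 5 of the 82 kept their call, with centring 54 and with the lymphoid covariate 47.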
